A study of Saccharomyces cerevisiae with 15 samples.

Results

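The mRNAs of 32 genes for subunits of Mediator and of RNA polymerase II were followed in budding yeast, out of 6692 yeast features in the deposited table. The 32 genes were taken by identifier and comprise 25 Mediator subunits and the 7 polymerase subunits that only RNA polymerase II contains. All are protein-coding genes with RefSeq entries, and all 32 had enough reads to be tested. The cells were BY4741 haploids of mating type a, which lack functional HIS3, LEU2, MET15 and URA3 genes. They grew in synthetic complete medium without isoleucine and valine, and the 15 libraries were made from total RNA of whole cells depleted of rRNA. There were 5 groups of 3 libraries. An spt3 deletion strain, an spt8 deletion strain, a gcn5 deletion strain and the wild type were sampled after 25 min with 1 µg/ml sulfometuron (SM), and the wild type was also sampled without SM. In each deletion strain the kanMX4 cassette replaces the gene named. No deletion strain without SM was analysed here, so how a strain responds to SM cannot be told apart from where it started. The sources used here do not say how the 3 libraries of a group were kept separate, for example as cultures. The p-values therefore cover only the spread among these samples, and that spread may be technical.

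Mediator is a large complex that carries signals from DNA-bound activators to RNA polymerase II at promoters. Its head and middle modules contact the polymerase, its tail module contacts activators, a scaffold subunit joins them, and a separable kinase module can dock on the middle module. RNA polymerase II is the enzyme that transcribes protein-coding genes. SM blocks the synthesis of isoleucine and valine, and the starvation raises translation of the activator Gcn4, which recruits Mediator and the coactivator SAGA to amino acid synthesis genes. Spt3 and Spt8 are SAGA subunits that work with the TATA-binding protein, and Gcn5 is the histone acetyltransferase of SAGA.

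The promoter sites of 5 members named below are shown, chosen among the members that hold a Gcn4 motif or a TATA motif. These motifs are the elements through which Gcn4 and the TATA-binding protein are known to act. The sites were read 5′ to 3′ on the coding strand of each gene from the RefSeq R64 genome. Capitals mark the motif and 10 bases are given on either side.
NUT2, chrXVI:877764-877790, plus strand: cgagatttgcTGAGTCAtgttgtggct
SSN8, chrXIV:585473-585500, minus strand: ttcttactccTTTATATAtttgaaaaaa
MED6, chrVIII:219955-219982, minus strand: atgagcgtatTATAAATAatgagtggaa
GAL11, chrXV:234853-234880, plus strand: ttaaaccccaTTTTTATAagcgtatcgt
RPO21, chrIV:210705-210732, minus strand: ataatataatTATAAAAAcctcaactag
The NUT2 stretch holds the Gcn4 motif TGACTCA on the opposite strand, and the other 4 hold a TATA motif on either strand. TGACTCA was searched on both strands in the 300 bases before each start codon and was found in 0 of 32 members, against 2.62% of 5980 promoters of the same length. In 500 bases it was found in 1 of 32 members, NUT2, against 3.997% of 5979 promoters. The TATA motif was searched on both strands as TATAAAAA, TATAAAAG, TATAAATA, TATAAATG, TATATAAA, TATATAAG, TATATATA and TATATATG, which can overlap one another. It lay within 300 bases in 13 of 32 members (40.6%), against 41.0% of all promoters. The share with a TATA motif in these genes was therefore close to that of all promoters. CSE2, SOH1, RPB11, PGD1, MED7 and MED8, whose changes are also given below, held neither motif within 500 bases. A match is a description of the letters and was not tested as a binding site.

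The libraries held 24.8 to 45.7 M yeast counts each. Synthetic ERCC RNAs, added in equal amounts to each sample of total RNA, made up 1.18% to 1.80% of the counts and set the scale of each library, so that a level is read per amount of total RNA. All ERCC values were even, against 50.5% of yeast values, so the ERCC RNAs may have been counted by read and the yeast genes by read pair, and the ERCC share of fragments may be lower than these percentages. Fewer cells of a kind and less RNA per cell cannot be told apart in these samples. Yeast counts per unit of spike-in differed most between the libraries of the spt3 and gcn5 groups. Library 1 of spt3 had 49.2 M per unit of the spike-in factor and the other 2 had 34.8 and 37.6 M, while library 3 of gcn5 had 43.2 M and the other 2 had 30.5 and 29.6 M. These libraries carry higher scaled counts for most genes, so counts of calls are also given with TMM, a scaling that takes most genes as unchanged. Library 3 of gcn5 also differed from its group in the proportions of its counts, more than any other library did, and no scaling removes that. Library names fall into 2 sets, 1 for both wild-type groups and spt3 and the other for spt8 and gcn5, and what the sets stand for is not given. The spt8 and gcn5 strains therefore cannot be told apart from their name set when compared with the wild type or with spt3. The deleted genes checked the labels: SPT3 had 1, 3 and 3 counts in the spt3 libraries against 711 to 1019 in wild type with SM. For SPT8 these were 16, 17 and 11 counts in the spt8 libraries against 957 to 1221, and for GCN5 12, 29 and 18 counts in the gcn5 libraries against 3326 to 4274.

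Levels of the subunit mRNAs are given as spike-in scaled counts per kb of coding length, since a longer mRNA yields more fragments. RPO21, the largest polymerase subunit (Rpb1; YDL140C, chromosome IV, 205360 to 210561, minus strand), was the most abundant of the 32 in every group. It reached 14741 ± 1595 per kb in wild type with SM and 15332 ± 1233 without SM (SD, n = 3). The level without SM stood at percentile 94.6 of all genes tested. MED4, a middle-module subunit (YOR174W, chromosome XV, 658747 to 659601, plus strand), had the lowest mean in both wild-type groups, with 1536 ± 85 per kb with SM and 832 ± 72 without SM. Its libraries overlapped those of RPB3 and SRB4 with SM and those of MED6 and NUT2 without SM, so MED4 was not lower than these beyond the spread. RPO21 thus exceeded MED4 9.60-fold per kb in wild type with SM and 18.4-fold without SM. Among the polymerase genes the lowest level was that of RPB3 in wild type with SM (1721 ± 199 per kb) and of RPB4 in wild type without SM (1184 ± 117 per kb). RPB3 and RPB4 (1778 ± 123 per kb) did not differ beyond their spread in wild type with SM.

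The most abundant Mediator mRNA changed with the condition. In wild type with SM it was SSN8, the cyclin C of the kinase module, at 10844 ± 1270 per kb, next to RPB7 at 10677 ± 663 per kb, and these 2 did not differ beyond their spread. In wild type without SM it was SOH1, the middle-module subunit Med31, at 6504 ± 758 per kb. The median over the 25 Mediator genes was 3352 per kb with SM and 1906 without SM, against 2369 with SM and 1567 without SM over all genes tested.

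**Figure D1:**
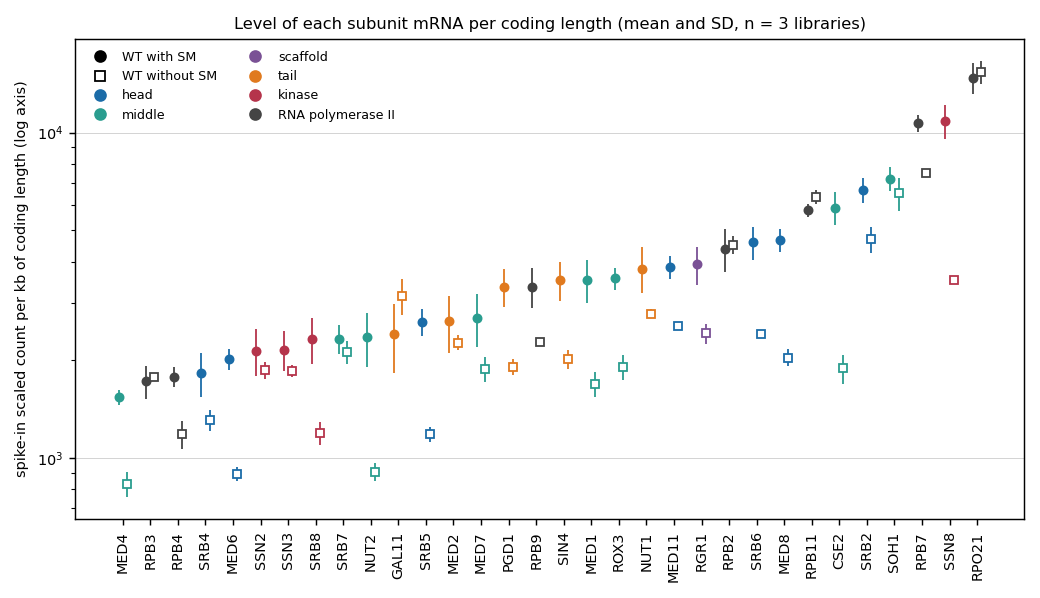
Level of each of the 32 mRNAs as spike-in scaled counts per kb of coding length (log axis) in wild type with SM (filled circles) and without SM (open squares), mean and SD of 3 libraries, coloured by module and ordered by the level with SM. RPO21 is highest in both, and SSN8 lies at 10844 with SM and 3533 without.

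The first comparison asked how starvation for isoleucine and valine changed these mRNAs in the wild type. With SM, 22 of the 32 mRNAs rose and 0 fell at an adjusted p under 0.05 (edgeR quasi-likelihood test, Benjamini-Hochberg over 6564 genes). The background was high: 55.7% of all genes tested were called higher and 7.57% lower. The 22 were all 7 head genes, 6 of 8 middle genes, the scaffold gene RGR1, 3 of 5 tail genes, 2 of 4 kinase genes and 3 of 7 polymerase genes. The median over all 32 was 0.57 log2, against 0.54 over all genes tested. The median over the 25 Mediator genes was 0.81 and over the 7 polymerase genes −0.04. With TMM, which moved the median of all genes to 0.04, 14 of the 32 were called higher and 10 lower, against a background of 41.3% higher and 37.3% lower. No member was called in opposite directions by the 2 scalings.

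In the head module, which binds the polymerase, MED8 (YBR193C, chromosome II, 609082 to 609753, minus strand) had 2931, 3425 and 3063 scaled counts in wild type with SM, against 1461, 1324 and 1316 without SM. Every library with SM lay above every library without it, and MED8 rose by 1.20 log2 (SE 0.18, edgeR adjusted p = 3.01e-07). MED6 (YHR058C, chromosome VIII, 218997 to 219884, minus strand), another head subunit, had 1789, 1917 and 1655 scaled counts with SM, against 749, 804 and 824 without SM. MED6 rose by 1.17 log2 (SE 0.20, edgeR adjusted p = 2.48e-06), again with no overlap. The other head mRNAs rose by 1.14 (SRB5, Med18), 0.94 (SRB6, Med22), 0.60 (MED11), 0.50 (SRB2, Med20) and 0.48 log2 (SRB4, Med17). The last 3 lay near the median gene, and with TMM none of them was called: MED11 was at 0.10, SRB2 at 0.01 and SRB4 at −0.02. The SRB4 call ended without library 1, 2 or 3 of wild type without SM or library 1 or 2 with SM, where its adjusted p reached 0.139, and the SRB2 call ended without library 3 of wild type without SM (adjusted p = 0.0555).

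The middle module held the largest rise of the 32. CSE2 (Med9; YNR010W, chromosome XIV, 643744 to 644193, plus strand) had 2649, 2940 and 2331 scaled counts in wild type with SM, against 925, 752 and 865 without SM. It rose by 1.64 log2 (SE 0.19, edgeR adjusted p = 1.54e-09), and the groups lay far apart. NUT2 (Med10; YPR168W, chromosome XVI, 878076 to 878549, plus strand) had 1156, 1294 and 886 scaled counts with SM, against 416, 462 and 412 without SM. It rose by 1.37 log2 (SE 0.21, edgeR adjusted p = 4.45e-07), and the groups did not overlap. MED7 (YOL135C, chromosome XV, 69376 to 70044, minus strand) had 1925, 2064 and 1422 scaled counts with SM, against 1160, 1380 and 1230 without SM. The groups lay close together, and the call for MED7 (0.52 log2, SE 0.20, edgeR adjusted p = 0.0211) ended without library 1 or 3 of wild type without SM or library 1 or 2 with SM, where the adjusted p reached 0.108. MED7 stood at 0.02 log2 with TMM. MED1, ROX3 (Med19) and MED4 rose by 1.07, 0.90 and 0.88 log2. SRB7 (Med21) and SOH1 did not pass, at 0.13 and 0.15 log2, and with TMM both were called lower, at −0.37 and −0.35 log2.

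NUT2 is the member with the Gcn4 motif shown above, starting at position −302 relative to its start codon. It shares that intergenic stretch of 443 bases with MET16, a gene of sulfate assimilation that is read in the opposite direction. MET16, named after its values were seen, had 2242, 2662 and 2162 scaled counts in wild type with SM, against 435, 376 and 487 without SM. It rose by 2.44 log2 (SE 0.19, edgeR adjusted p = 8.81e-14), more than NUT2. Which of the 2 genes the motif bears on was not tested.

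RGR1 (Med14), the scaffold, rose by 0.70 log2 (SE 0.19, edgeR adjusted p = 0.00191). In the tail, the module that activators such as Gcn4 contact, PGD1 (Med3; YGL025C, chromosome VII, 448764 to 449957, minus strand) had 4267, 4357 and 3384 scaled counts in wild type with SM, against 2207, 2419 and 2201 without SM. It rose by 0.81 log2 (SE 0.19, edgeR adjusted p = 0.000374), with no overlap. SIN4 (Med16) rose by 0.81 and NUT1 (Med5) by 0.46 log2. The NUT1 call ended without any of the 3 libraries without SM or without library 1 or 2 with SM (adjusted p up to 0.168), and NUT1 was at −0.04 log2 with TMM. MED2 was at 0.22 log2 and did not pass. GAL11 (Med15; YOL051W, chromosome XV, 234940 to 238185, plus strand) had 8893, 8820 and 5633 scaled counts with SM, against 9636, 11663 and 9330 without SM. All 3 libraries with SM lay below those without, at −0.39 log2 (SE 0.23, edgeR adjusted p = 0.134), which did not pass. GAL11 was called lower with TMM (−0.90 log2, adjusted p = 3.21e-05), where it was the lowest of the 32.

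The kinase module divided. SSN8 (YNL025C, chromosome XIV, 584320 to 585291, minus strand) had 10720, 11675 and 9226 scaled counts in wild type with SM, against 3336, 3441 and 3526 without SM. It rose by 1.62 log2 (SE 0.19, edgeR adjusted p = 2.25e-09), and every library with SM was far above those without. SRB8 (Med12) rose by 0.96 log2. SSN3, the cyclin-dependent kinase partner of cyclin C, was at 0.22 and SSN2 (Med13) at 0.20 log2, and neither passed. With TMM, SSN3 and SSN2 were called lower, at −0.29 and −0.31 log2, while SSN8 stayed higher, at 1.12 log2.

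Of the polymerase subunits, RPB4 and RPB7, which form the stalk, rose by 0.59 and 0.51 log2, and RPB9, which lies on the rim of the enzyme, rose by 0.56 log2. All 3 lay at the level of the median gene, and none was called with TMM. The RPB9 call ended without library 2 of wild type with SM (adjusted p = 0.0571). The 2 large catalytic subunits and the RPB3 and RPB11 pair that assembles them did not pass: RPO21 stood at −0.06, RPB2 at −0.04, RPB3 at −0.04 and RPB11 at −0.13 log2. RPO21 had 77121, 84753 and 68178 scaled counts with SM, against 74297, 86821 and 78153 without SM, and the groups overlapped. RPB11 (YOL005C, chromosome XV, 315813 to 316175, minus strand) had 2137, 2167 and 1976 scaled counts with SM, against 2177, 2315 and 2402 without SM. With TMM these 4 were called lower, at −0.54 to −0.63 log2, and were the only polymerase genes called. The split between these 4 and the other 3 was noticed after the values were seen.

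**Figure D2:**
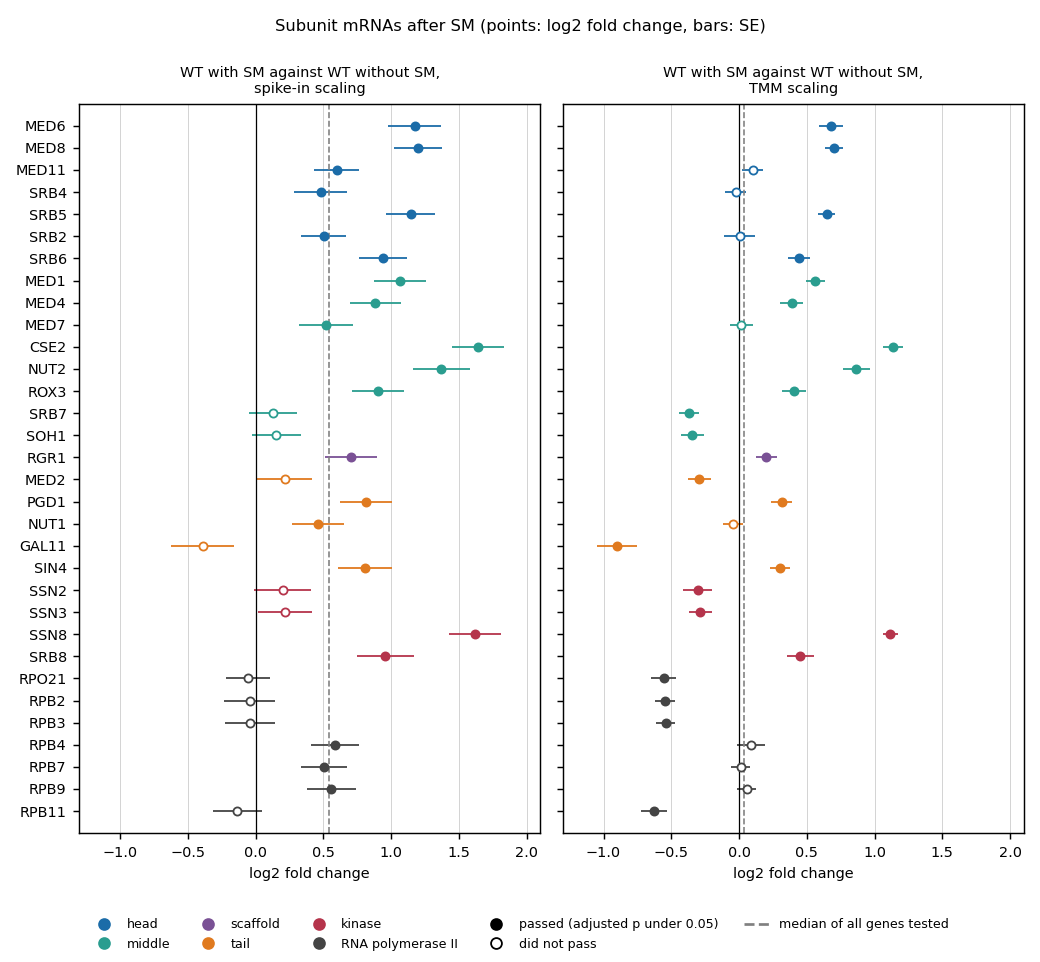
Log2 fold change (wild type with SM over without) of each member with its SE, by spike-in scaling (left) and TMM (right). Filled points passed the test, and the dashed line is the median of all genes tested (0.54 and 0.04). CSE2 and SSN8 lie farthest right under both, and RPO21, RPB2, RPB3 and RPB11 lie left of the median gene.

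**Figure D3:**
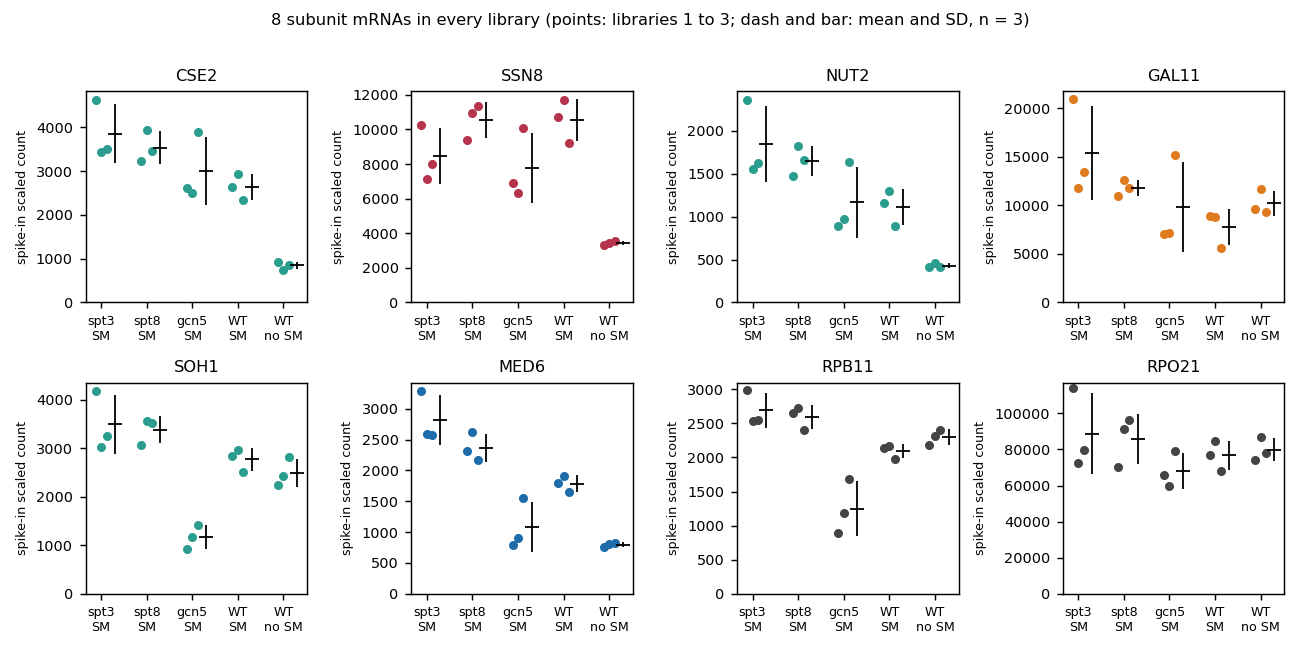
Spike-in scaled counts of 8 members in each library (points, libraries 1 to 3 from left to right), with the mean and SD of 3 libraries. CSE2, SSN8 and NUT2 are lowest in wild type without SM, SOH1 and RPB11 are lowest in gcn5 with SM, and RPO21 overlaps between all 5 groups.

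The next comparisons asked how loss of a SAGA subunit changed these mRNAs in the presence of SM. In the spt3 strain, 9 of the 32 were higher than in wild type with SM and 0 were lower, against a background of 21.7% higher and 14.0% lower. Another 6 had an unadjusted p under 0.05, which makes 15 of the 32, against 2925 of the 6564 genes tested, a similar share. The 9 were GAL11, NUT2, PGD1, MED6, RPB3, RGR1, CSE2, RPB2 and MED2, or 1 of 7 head, 2 of 8 middle, 1 of 1 scaffold, 3 of 5 tail, 0 of 4 kinase and 2 of 7 polymerase genes. Differences between modules were not tested, and with TMM 2 kinase genes were higher and 1 lower. The median was 0.37 log2 over the members and 0.11 over all genes tested. With TMM, 20 members were higher and 2 lower, against a background of 33.9% higher and 31.4% lower.

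GAL11, the tail subunit that Gcn4 binds, had 20966, 11769 and 13489 scaled counts in spt3, against 8893, 8820 and 5633 in wild type with SM. It was higher by 0.99 log2 (SE 0.23, edgeR adjusted p = 0.00092), with no overlap, and library 1 of spt3 was the highest by far. NUT2 had 2358, 1558 and 1628 scaled counts in spt3, against 1156, 1294 and 886 in wild type with SM, which is 0.73 log2 higher (SE 0.20, edgeR adjusted p = 0.00463). PGD1 had 8348, 5417 and 5467 scaled counts in spt3, against 4267, 4357 and 3384 in wild type with SM, which is 0.68 log2 higher (SE 0.19, edgeR adjusted p = 0.00534). MED6 had 3293, 2595 and 2568 scaled counts in spt3, against 1789, 1917 and 1655 in wild type with SM, which is 0.66 log2 higher (SE 0.19, edgeR adjusted p = 0.00725). In all 4 genes the groups did not overlap and library 1 of spt3 stood above the other 2. The remaining 5 calls lay between 0.51 and 0.58 log2.

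Library 1 decided most of these calls. Without it, GAL11 alone of the 32 kept its call, at 0.70 log2 (adjusted p = 0.0273), and NUT2, PGD1 and MED6 had adjusted p-values of 0.0700, 0.0796 and 0.0552. Without library 3 of wild type with SM 4 members were called, without library 1 of wild type 6, and without library 2 of spt3 15. These counts are given without the shares of all genes called in the same fits, so they are not a result about the members. With TMM most calls did not rest on that library, but those for SRB4, SSN2 and SOH1 ended without it. In that leave-out 18 members were higher and 2 lower, given without a share of all genes. Of the 20 higher calls with TMM 16 held whichever of the 6 libraries was left out, as did both lower calls. GAL11 (0.87), NUT2 (0.63), PGD1 (0.57) and MED6 (0.56 log2) were among those 16. The 2 lower with TMM were SSN8, at −0.42 log2, and RPB7, at −0.28 log2, and neither passed with spike-ins, at −0.31 and −0.18 log2. MED6, NUT2 and PGD1 had also risen with SM, and GAL11 had not; both comparisons share the wild-type libraries with SM.

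In the spt8 strain 0 of the 32 passed in either direction, against a background of 6.57% higher and 5.58% lower. Here 9 had an unadjusted p under 0.05, against 1780 of the 6564 genes tested, a similar share. DESeq2 also called 0, with 7 at an unadjusted p under 0.05, for which no share of all genes is given here. A fit of these 2 groups alone called 14 higher and 0 lower. No share of all genes is given here for that fit or for DESeq2, so neither count is a result about the members. TMM called 14 higher and 0 lower, against a background of 23.8% higher and 21.1% lower. The median was 0.29 log2 over the members and 0.13 over all genes tested. GAL11 had 11010, 12648 and 11781 scaled counts in spt8, against 8893, 8820 and 5633 in wild type with SM, which is 0.60 log2 (SE 0.23, edgeR adjusted p = 0.0815). Its groups did not overlap. NUT2 had 1469, 1817 and 1660 scaled counts in spt8, against 1156, 1294 and 886 in wild type with SM, which is 0.57 log2 (SE 0.20, edgeR adjusted p = 0.0612). With TMM both were called higher, at 0.49 and 0.45 log2, and of the 14 TMM calls 7 held whichever library was left out: NUT2, SSN2, SRB8, CSE2, PGD1, NUT1 and RGR1. Without library 3 of wild type with SM, TMM called 8. The share of all genes called in that fit is not given here.

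The gcn5 strain was the only strain with members called lower by spike-ins. Against wild type with SM, 5 of the 32 were lower (SOH1, RPB11, MED6, MED7 and RPB4) and 2 were higher (MED2 and SRB7). The background was 10.5% higher and 30.4% lower. The 15.6% of members called lower was thus a smaller share than of all genes, which were called lower more often here than in spt3 or spt8. The median was −0.07 log2 over the members and −0.19 over all genes tested. With TMM 13 members were higher and 9 lower, against a background of 34.1% higher and 33.3% lower.

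SOH1 (Med31; YGL127C, chromosome VII, 270392 to 270775, minus strand) had 914, 1180 and 1421 scaled counts in gcn5, against 2847, 2964 and 2508 in wild type with SM. It was lower, at −1.24 log2 (SE 0.18, edgeR adjusted p = 1.19e-06), and the highest gcn5 library lay well below the lowest wild-type library. RPB11 had 888, 1183 and 1677 scaled counts in gcn5, against 2137, 2167 and 1976 in wild type with SM. It was lower, at −0.74 log2 (SE 0.19, edgeR adjusted p = 0.00136), with no overlap. MED6 had 796, 896 and 1553 scaled counts in gcn5, against 1789, 1917 and 1655 in wild type with SM. It was lower, at −0.73 log2 (SE 0.19, edgeR adjusted p = 0.00284), with library 3 of gcn5 close to the wild type. These 3 calls held whichever of the 6 libraries was left out, and with TMM they stood at −1.04, −0.57 and −0.56 log2.

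MED7 had 962, 1061 and 1661 scaled counts in gcn5, against 1925, 2064 and 1422 in wild type with SM. The groups overlapped, and the difference was −0.55 log2 (SE 0.20, edgeR adjusted p = 0.0234). RPB4 (YJL140W, chromosome X, 150961 to 151626, plus strand) had 680, 765 and 1105 scaled counts in gcn5, against 1143, 1279 and 1131 in wild type with SM, which is −0.48 log2 (SE 0.18, edgeR adjusted p = 0.0291). Both calls ended without library 1 or 2 of wild type with SM or library 1 or 2 of gcn5, where the adjusted p reached 0.120 for MED7 and 0.160 for RPB4. Without library 3 of gcn5, the library with more yeast counts per spike-in, 15 members were lower and 0 higher. The share of all genes called in that fit is not given here, so this count is not a result about the members.

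Of the 2 higher in gcn5, MED2 (YDL005C, chromosome IV, 441014 to 442309, minus strand), a tail subunit, had 4053, 4112 and 7165 scaled counts in gcn5, against 3412, 4086 and 2720 in wild type with SM. The groups overlapped slightly, and the difference was 0.59 log2 (SE 0.20, edgeR adjusted p = 0.0195). SRB7 (YDR308C, chromosome IV, 1078027 to 1078449, minus strand), a middle subunit, had 1159, 1177 and 1678 scaled counts in gcn5, against 978, 1085 and 882 in wild type with SM. SRB7 did not overlap between the groups and was higher by 0.45 log2 (SE 0.18, edgeR adjusted p = 0.0419). Both calls ended without library 1 or 3 of wild type with SM or library 3 of gcn5, with adjusted p-values up to 0.137 for MED2 and 0.154 for SRB7. With TMM both stood higher, at 0.77 and 0.64 log2, and were 2 of the 9 higher calls that held whichever library was left out. With TMM 6 of the 9 lower calls held in the same way: SOH1, RPB11, MED6, MED7, PGD1 and SSN8.

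The a-cell marker mRNAs moved in the same comparison. The summed level of 5 a-specific genes (STE2, STE6, BAR1, MFA1 and MFA2) was 70725 to 103341 scaled counts in gcn5, against 140423 to 164978 in wild type with SM. Of the 5, 4 fell, against 30.4% of all genes called lower. The 3 alpha-specific genes summed to 1750 to 2413 in gcn5, against 3049 to 3616 in wild type with SM, far below the a-specific sum in every library, as the mating type a label says. Of these 3, STE3 and MF(ALPHA)2 were lower, at −0.80 and −0.65 log2, and MF(ALPHA)1 was higher, at 0.84 log2. The MF(ALPHA)2 call ended without library 2 of wild type with SM (edgeR adjusted p = 0.0596). The MF(ALPHA)1 call ended without library 3 of gcn5 (edgeR adjusted p = 0.0581). With SM all 5 a-specific and all 3 alpha-specific genes also rose in wild type, against 55.7% of all genes called higher. MFA1 (0.55), STE6 (0.55) and MFA2 (0.59 log2) lay near the median gene (0.54). The STE6 call ended without library 2 of wild type with SM (edgeR adjusted p = 0.0539). TMM called 2 of the 5 a-specific and 2 of the 3 alpha-specific genes higher, against 41.3% of all genes. The alpha-specific sum was 3049 to 3616 with SM against 525 to 627 without SM. In spt3 the a-specific sum was 116697 to 168774 and in spt8 123666 to 144605. Only MFA2 was called lower in spt3 (−0.54 log2) and none in spt8. The MFA2 call ended without library 2 or 3 of spt3 (edgeR adjusted p up to 0.0541). TMM called 3 of the 5 lower in spt3 and 5 of 5 in spt8, against 31.4% and 21.1% of all genes. In spt3 over gcn5 and in spt8 over gcn5, 4 of the 5 a-specific genes were higher, against 37.3% and 37.1% of all genes. The STE2 call ended in 3 and 4 of 6 leave-outs there (edgeR adjusted p up to 0.246 and 0.0876). What part these marker changes have in the subunit differences was not tested.

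**Figure D4:**
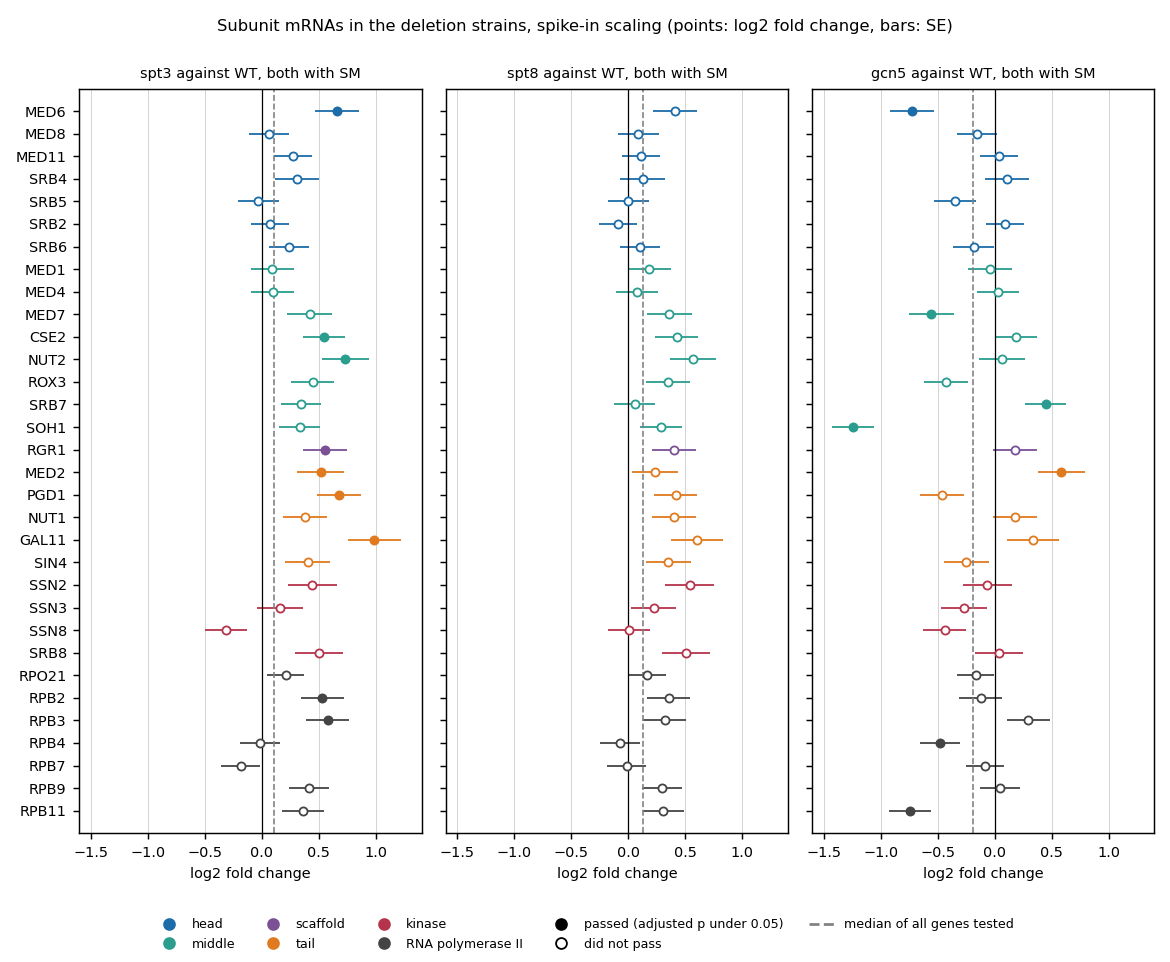
Log2 fold change of each member in the spt3, spt8 and gcn5 strains over wild type, all with SM, with SE by spike-in scaling. Filled points passed the test, and the dashed line is the median of all genes tested (0.11, 0.13 and −0.19). SOH1 in gcn5 (−1.24) and GAL11 in spt3 (0.99) are the extremes.

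The strains were then set against each other directly. Between spt3 and spt8 0 of the 32 passed, 0 had an unadjusted p under 0.05, and DESeq2 and a fit of these 2 groups alone each called 0, against a background of 1.10% higher and 2.39% lower in spt3. With TMM 5 were higher in spt3 (SRB7, MED2, PGD1, RPB3 and MED6, by 0.27 to 0.31 log2) and SSN8 was lower (−0.30 log2), against a background of 16.9% higher and 14.2% lower. Of these calls SRB7, RPB3 and SSN8 held whichever library was left out, while 2 were higher without library 1 of spt3 and 3 without library 1 or 3 of spt8. The shares of all genes called in those leave-out fits are not given here. The median was 0.08 log2 over the members and −0.01 over all genes tested.

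Between spt3 and gcn5, 13 of the 32 were higher in spt3 and 0 lower, against a background of 37.3% higher and 9.72% lower. Between spt8 and gcn5, which are in the same name set, 11 were higher in spt8 and 0 lower, against a background of 37.1% higher and 7.75% lower. The member shares called higher (40.6% and 34.4%) lay near those backgrounds, while the 0 called lower were below them. The medians over the members were 0.37 and 0.31 log2, and those over all genes tested 0.31 and 0.30. With TMM the counts were 10 higher and 7 lower for spt3 over gcn5, against 33.6% higher and 30.6% lower, and 10 higher and 8 lower for spt8 over gcn5, against 31.0% higher and 31.3% lower.

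The same 6 genes led both comparisons and kept their calls whichever library was left out: SOH1, MED6, PGD1, RPB11, MED7 and ROX3. The comparisons share the gcn5 libraries. SOH1 had 4191, 3032 and 3249 scaled counts in spt3 and 3069, 3567 and 3519 in spt8, against 914, 1180 and 1421 in gcn5. It was higher by 1.57 log2 in spt3 (SE 0.19, edgeR adjusted p = 1.06e-08) and by 1.53 log2 in spt8 (SE 0.19, edgeR adjusted p = 2.84e-08), and neither group overlapped gcn5. MED6 had 3293, 2595 and 2568 scaled counts in spt3 and 2315, 2617 and 2168 in spt8, against 796, 896 and 1553 in gcn5. It was higher by 1.38 log2 in spt3 (SE 0.20, edgeR adjusted p = 4.25e-07) and by 1.13 log2 in spt8 (SE 0.20, edgeR adjusted p = 1.52e-05), with no overlap.

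PGD1 had 8348, 5417 and 5467 scaled counts in spt3 and 4588, 5758 and 5661 in spt8, against 2380, 2666 and 3691 in gcn5. It was higher by 1.14 log2 in spt3 (SE 0.19, edgeR adjusted p = 9.82e-06) and by 0.87 log2 in spt8 (SE 0.19, edgeR adjusted p = 0.000393). RPB11 had 2992, 2537 and 2551 scaled counts in spt3 and 2650, 2728 and 2398 in spt8, against 888, 1183 and 1677 in gcn5. It was higher by 1.11 log2 in spt3 (SE 0.19, edgeR adjusted p = 7.69e-06) and by 1.05 log2 in spt8 (SE 0.19, edgeR adjusted p = 2.02e-05). MED7 had 2992, 2002 and 2237 scaled counts in spt3 and 2009, 2553 and 2387 in spt8, against 962, 1061 and 1661 in gcn5. It was higher by 0.97 log2 in spt3 (SE 0.20, edgeR adjusted p = 0.00014) and by 0.92 log2 in spt8 (SE 0.20, edgeR adjusted p = 0.000325). In all of these 3 genes every spt3 and spt8 library lay above every gcn5 library.

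ROX3 was higher by 0.87 log2 in spt3 and 0.78 log2 in spt8. With TMM all 6 were still called higher in both comparisons, from 0.60 log2 (ROX3) to 1.27 log2 (SOH1) in spt3 and from 0.49 log2 (ROX3) to 1.20 log2 (SOH1) in spt8. The other calls ended without 1 or more libraries. For spt3 over gcn5 the 7 were NUT2, SIN4, RPB2, GAL11, SSN2, RPB4 and SRB6, and each ended without library 1 of gcn5, but with TMM NUT2, SIN4 and RPB2 were higher whichever library was left out. NUT2 (1848 ± 443 scaled counts in spt3 and 1164 ± 413 in gcn5, SD, n = 3) was at 0.67 log2 and had an adjusted p of 0.101 at most when a library was left out. For spt8 over gcn5 the 5 were SSN2, SIN4, NUT2, SSN3 and RPB2, and each ended without library 1 and also without library 2 of gcn5, but with TMM SIN4 was higher whichever library was left out. NUT2 was at 0.50 log2 there, with an adjusted p up to 0.208. Without library 3 of gcn5 the counts were 28 higher for spt3 and 25 higher for spt8. The shares of all genes called in those fits are not given here, so these counts are not a result about the members. The members called lower with TMM and kept in every leave-out were MED2, SRB7 and RPB7 for spt3, and for spt8 also SRB4, RPB3, SRB2 and MED11. None of these 7 passed by spike-ins in either comparison.

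**Figure D5:**
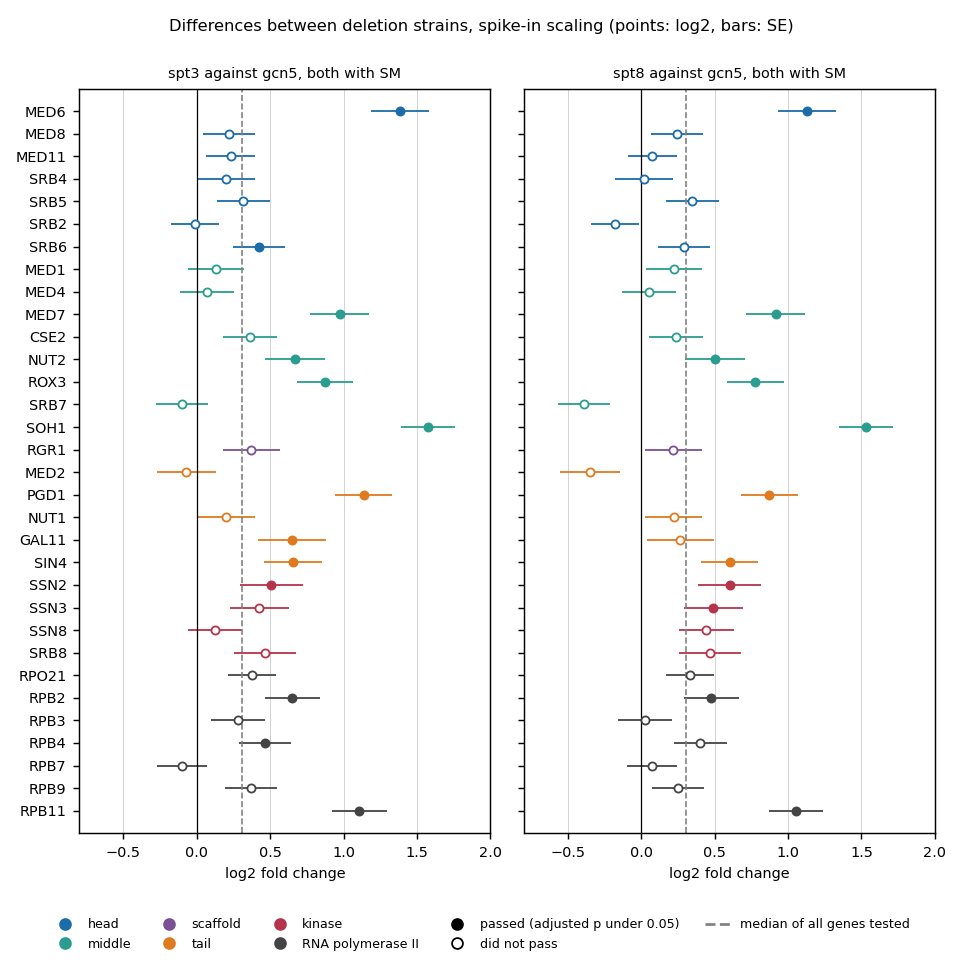
Log2 difference of each member between spt3 and gcn5 (left) and between spt8 and gcn5 (right), all with SM, with SE by spike-in scaling. The dashed line is the median of all genes tested (0.31 and 0.30), and SOH1, MED6, PGD1, RPB11, MED7 and ROX3 lie farthest right in both panels.

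Over the 7 comparisons MED6 was called in 5 by spike-ins, and MED7, NUT2 and PGD1 in 4 each. The comparisons share libraries, so these calls are not independent, and the number of calls per gene over all genes is not given here. Some ended when 1 library was left out: MED6 and PGD1 in spt3, and MED7 with SM and in gcn5. The NUT2 calls in spt3, in spt3 over gcn5 and in spt8 over gcn5 ended likewise. RPO21 was called in 0. MED6 averaged 2819 ± 411 scaled counts in spt3, 2367 ± 229 in spt8 and 1081 ± 411 in gcn5, against 1787 ± 131 in wild type with SM and 792 ± 39 in wild type without SM (SD, n = 3 each). RPO21 averaged 88745 ± 22428 in spt3, 85919 ± 13911 in spt8 and 68285 ± 9965 in gcn5, against 76684 ± 8296 in wild type with SM and 79757 ± 6414 in wild type without SM.

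Other parts of the transcription machinery were read from lists chosen by function. Of 17 subunits of the general factors TFIIA, TFIIB, TFIIE, TFIIF and TFIIH, 11 (64.7%) rose with SM in wild type and 0 fell, near the 55.7% of all genes called higher, and 8 of the 11 held whichever library was left out. The TFIIH genes TFB1 (1.46 log2) and KIN28 (1.34 log2) rose most and were among those 8. With TMM 7 were higher and 5 lower, against the 41.3% and 37.3% of all genes. Of 11 elongation factors 1 rose and 3 fell, against 55.7% of all genes called higher and 7.57% lower. DST1, which encodes TFIIS, rose by 0.95 log2, and SPT5 fell by 1.17 on the log2 scale. SPT6 and POB3 also fell, but these calls did not hold. The SPT6 call ended in 5 of 6 leave-outs (edgeR adjusted p up to 0.195). The POB3 call ended without library 3 of wild type with SM (edgeR adjusted p = 0.0504). With TMM 1 was higher and 10 were lower, against the 41.3% and 37.3% of all genes. Of 5 enzymes acting on the C-terminal domain of Rpb1, 4 rose, led by the phosphatase genes RTR1 (1.18) and SSU72 (0.86 log2). The calls for BUR1 and FCP1 each ended in 4 of 6 leave-outs (edgeR adjusted p up to 0.124 and 0.105). With TMM 2 of these enzymes were higher and 1 lower. Of the 5 subunits shared with other RNA polymerases 1 rose, RPB10 (0.55 log2, or 0.05 with TMM), and with TMM 4 were lower. TFB1, KIN28, DST1, SPT5, RTR1, SSU72 and RPB10 kept their calls with SM whichever library was left out.

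In spt3, where 21.7% of all genes were called higher, 7 of 11 elongation factors were higher than in wild type with SM and 0 lower, led by SPT5 (1.17) and RTF1 (1.12 log2). Without library 1 of spt3 SPT5 and RTF1 alone of the 7 kept their calls, and with all libraries TMM called 10 higher. The general factors gave 6 higher, led by TOA1 (0.79) and TFG1 (0.75 log2), the enzymes of the C-terminal domain 3, led by BUR1 (0.72) and CTK1 (0.58 log2), and the shared subunits 3, led by RPC10 (0.67) and RPB5 (0.46 log2), with 0 lower in each. Of the genes named, TFG1 (adjusted p = 0.0594) and CTK1 ended without library 1 of spt3, CTK1 also without library 1 of wild type with SM (adjusted p up to 0.0779), and RPB5 ended in 5 of 6 leave-outs, all but that of library 2 of wild type (adjusted p up to 0.175). With TMM the general factors gave 8 higher and 1 lower, the enzymes of the C-terminal domain 3 and 1, and the shared subunits 5 and 0. Over all genes TMM called 33.9% higher and 31.4% lower in spt3. In the spt8 strain 0 genes of the 4 lists passed, and 1, 4, 3 and 0 of the general, elongation, C-terminal domain and shared lists had an unadjusted p under 0.05. Over all genes tested, 1780 of 6564 had such a p. For DESeq2 the calls were also 0, while TMM called 5, 5, 3 and 2 higher and 1 lower, the last among the enzymes of the C-terminal domain. Over all genes TMM called 23.8% higher and 21.1% lower in spt8. In gcn5, 5 of 17 general factors (29.4%) were lower than in wild type with SM, near the 30.4% of all genes, led by TOA2 (−1.29) and TFG2 (−0.83 log2), which held whichever library was left out. The elongation factors LEO1 (0.69) and PAF1 (0.57 log2) were higher, and the phosphatase gene FCP1 was lower (−0.50 log2). LEO1 ended without library 3 of gcn5 (adjusted p = 0.0668), and PAF1 without that library or library 3 of wild type with SM (adjusted p up to 0.0793). FCP1 ended without library 1 or 2 of either group (adjusted p up to 0.193). With TMM 6 general factors were higher and 5 lower, near the 34.1% and 33.3% of all genes in gcn5. Against the same shares, 9 elongation factors were higher and 0 lower, 2 enzymes of the C-terminal domain higher and 1 lower, and 3 shared subunits higher and 0 lower. Between spt3 and gcn5 11 general factors were higher in spt3, against 37.3% of all genes, and between spt8 and gcn5 8 (47.1%) were higher in spt8, against 37.1%, with TFG2 (1.45 and 1.12 log2) and TOA2 (1.02 and 1.15 log2) leading in both.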

How the data were processed

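The deposited table gives raw counts per gene, made by the authors with STAR and SAMtools on sacCer3 and followed by DESeq2, per the submitters' processing notes, without versions. Libraries were stranded, per the labels' protocols, but the sources used here do not name the strand that was counted. PGD1, GAL11, SIN4, SSN2, SRB8 and RPB3 overlap features on the other strand. The feature at PGD1 had 13 to 810 raw counts, where PGD1 had at least 1938. Those at RPB3 had at most 282, where RPB3 had at least 1299. Those at GAL11, SIN4, SSN2 and SRB8 had at most 124. What the overlap means for the PGD1 counts was not tested. From there, edgeR 4.0.16 (R 4.3.3) was run with size factors from the median of ratios over 74 ERCC RNAs, filterByExpr, all 15 libraries in 1 quasi-likelihood fit over 6564 genes and Benjamini-Hochberg adjustment, with calls at 0.05. Scaled counts are counts divided by these factors, and ± is SD. The common coefficient of variation between replicates was 16.1% with spike-ins and 7.86% with TMM. Alternatives were TMM, DESeq2 1.42.0, no filter, only the 2 groups compared, a replicate block and leaving out each library; leaving out each library under TMM was added after seeing the data. Replicates of a group differed by more than sampling noise. With libraries scaled by their totals, the chi-squared statistic per gene was 103.5 and 76.64 for library 3 of gcn5 against libraries 1 and 2. Every other pair within a group gave 10.32 to 36.35. Library 3 of gcn5 thus differed in the proportions of its counts as well as in scale. The scripts were tested on simulated data. The members and lists were chosen with earlier results of these data known. Full values are given for the members called with the largest change (up to 4 each way per comparison), those called in 4 or more comparisons and the highest and lowest levels per kb; of other lists, up to 2 called genes. Others are named in counts. All 32 members matched RefSeq R64 at the same coordinates, and lengths are coding lengths.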

Additional observations from a re-analysis of the deposited data

How the results depend on the processing

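Without a filter on low counts and with DESeq2 all counts of called members stayed within 1.5 times. With TMM 14 members were higher and 10 lower with SM (median 0.072 log2). In spt3 they were 20 and 2, in spt8 14 higher, and in gcn5 13 and 9. Between spt3 and spt8 they were 5 and 1. For spt3 over gcn5 7 were lower (median 0.078), and for spt8 over gcn5 8 were lower (median −0.0031). SRB4 and NUT1 turned to −0.023 and −0.043 log2 with SM under TMM, and were not called there. With only the 2 groups compared 1 member was lower with SM, 14 were higher in spt8, 0 were higher and 3 lower in gcn5, and 7 were higher for spt3 over gcn5. No share of all genes is given for these fits, so the counts show only how far the calls depend on the fit. The causes were not tested. Same-numbered libraries did not deviate together: 7 of 30 pairs had a correlation over 0.1 (−0.382 to 0.244). With the replicate block 1 member instead of 2 was higher in gcn5, and every other count stayed within 1.5 times. Leaving out 1 library gave 1 to 15 higher in spt3, 0 to 2 higher and 3 to 15 lower in gcn5 (median −0.31 to 0.043), 6 to 28 higher for spt3 over gcn5 (median 0.21 to 0.60), and 6 to 25 higher and 0 to 1 lower for spt8 over gcn5 (median 0.23 to 0.56). Under TMM it gave 8 to 13 higher and 0 to 1 lower in spt8, 2 to 5 higher for spt3 over spt8 and 4 to 6 lower for spt3 over gcn5. The shares of all genes called in the leave-out fits are not given here, so their counts show only how far the calls depend on single libraries. By spike-ins the libraries of a group differ in yeast counts per spike-in, which limits what 3 libraries can show.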
